A study of Oryza sativa with 3 samples.

Results

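The peaks described here lie on the distal long arm of rice chromosome 11, between 24 and 28 Mb. Members were selected by position: a peak belongs to the stretch when its summit falls inside these bounds, the lower bound left out and the upper one included. Coordinates are those deposited, and no source used here names their genome build. Of the 37427 peaks in both lists together, 445 met this rule, 208 of 15980 in replicate 1 and 237 of 21447 in replicate 2. The bounds themselves were set with the positions of all peaks known, so the values below are a description of these lists, and no test was run on them.

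The data came from DNA affinity purification sequencing (DAP-seq), in which a tagged protein made in vitro is mixed with fragments of naked genomic DNA and the retained DNA is sequenced. Both OsWRKY11-Halo libraries, replicate 1 and replicate 2, carried the rice transcription factor OsWRKY11 fused to the Halo tag, and the single control library carried GFP-Halo. All 3 reactions used a genomic library of seedlings of the cultivar Nipponbare, without chromatin, and the labels give the tissue as shoot. The labels also describe fixed shoots of pUbi:OsWRKY11-Myc plants, a step of chromatin immunoprecipitation, and do not settle its bearing on these libraries. Whether the replicates were prepared separately is not stated, and their spread may be technical only.

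WRKY proteins are plant transcription factors that bind the W-box, a short DNA element, and many of them act in defence against pathogens as well as in development. The distal long arm of chromosome 11 is known in rice for clusters of NBS-LRR genes, which encode intracellular receptors that sense pathogen effectors and switch on immunity. Such clusters grow by tandem duplication and hold related gene copies. The gene content of the stretch could not be checked in the coordinates of the lists. The gene table at hand (assembly ASM3414082v1, a build not shown to be that of the lists) gives gene order but no protein function. It names the blast-resistance gene Pikm2, an NBS-LRR gene (LOC4351153), with 130 of the 2834 genes of chromosome 11 after it in gene order. No peak is assigned to a gene here, and the stretch is called by its position.

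Peaks were about as dense in the stretch as in its neighbour, but a larger share of them was found in both lists. The neighbour, used as the comparison, was the part of chromosome 11 from 15 to 24 Mb, with 438 peaks in replicate 1 and 564 in replicate 2. Replicate 1 had 52.0 peaks per Mb from 24 to 28 Mb against 48.7 from 15 to 24 Mb. Replicate 2 had 59.3 against 62.7 peaks per Mb. The ratio of the densities was 1.07 in replicate 1 and 0.945 in replicate 2 (average 1.01 ± 0.0870, SD, n = 2), so the stretches differed by less than the spread between lists. Replicate 2 held 1.14 times as many peaks as replicate 1 in the stretch, against 1.29 times from 15 to 24 Mb and 1.34 times over all chromosomes.

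A partner was a peak of the other list that overlapped over at least 50% of the shorter peak. In replicate 1, 55 of the 208 peaks of the stretch had a partner (26.4%, exact 95% binomial interval 20.6% to 33.0%), where the share over all peaks of the list was 17.6%. In replicate 2, 53 of 237 peaks had a partner (22.4%, 17.2% to 28.2%), where the share over the whole list was 13.1%. From 15 to 24 Mb the shares were 16.7% (13.3% to 20.5%, 73 of 438 peaks) and 12.8% (10.1% to 15.8%, 72 of 564), close to those of the whole lists. The share in the stretch was thus above that of its neighbour by 9.78 percentage points in replicate 1 and 9.60 in replicate 2. Peaks with a partner stood at 13.8 and 13.3 per Mb in the stretch and at 8.11 and 8 per Mb from 15 to 24 Mb, a ratio of 1.68 ± 0.0275 (SD, n = 2). Both lists count nearly the same pairs, so this small SD is no measure of error for the ratio. Both lists were also called against the same GFP-Halo library, and the part of that shared control in the pairs was not tested. The intervals cover counting error only.

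Peak length moved with this difference. The median length was 176 bp in replicate 1 and 172 bp in replicate 2, against 157 bp and 159 bp from 15 to 24 Mb. Peaks of at least 300 bp made up 13.0% (27 peaks) and 13.5% (32 peaks) of the stretch, 6.39% and 7.45% of the comparison, and 8.79% and 8.25% of the whole lists. Beyond 28 Mb they made up 10.9% (7 peaks) and 14.3% (12 peaks), with median lengths of 195 bp and 171 bp over all peaks there. Longer peaks were thus not particular to the stretch. Over all chromosomes, 50.1% of replicate 1 peaks of at least 300 bp had a partner, against 10.4% of those under 150 bp. When only peaks under 200 bp were kept in both lists, the share in the stretch exceeded that of the comparison by 1.78 percentage points on average, and the ratio of densities of peaks with a partner was 1.13. Within length classes of the full lists, the share was the higher one in the stretch in 8 of 8 comparisons, 4 classes in each list, and the intervals overlapped in every one of them. Both lists count nearly the same pairs, so these are not 8 separate observations. Among peaks of at least 300 bp, 55.6% of those in the stretch had a partner in replicate 1 (35.3% to 74.5%, 15 of 27) against 42.9% from 15 to 24 Mb (24.5% to 62.8%, 12 of 28). Among peaks under 150 bp, the shares were 20.8% (12.2% to 32.0%, 15 of 72) and 12.8% (8.43% to 18.3%, 25 of 196).

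Stronger peaks more often had a partner in the stretch, as they did over all chromosomes. In replicate 1, the share was 13.8% for a fold enrichment from 2 to 2.5 (4 of 29 peaks), 17.5% from 2.5 to 3 (14 of 80), 31.5% from 3 to 3.5 (17 of 54) and 44.4% from 3.5 upward (20 of 45). The shares of replicate 2 over these classes were 13.0%, 20%, 28.2% and 50%, of 77, 95, 39 and 26 peaks. In all 8 classes, which rest on nearly the same pairs in both lists, the value of the stretch was above that from 15 to 24 Mb. In 1 class the intervals did not overlap: replicate 1 folds from 3 to 3.5, with 31.5% (19.5% to 45.6%) against 10.1% (4.95% to 17.8%). That gap rests partly on a low comparison value, since the share of this class over all chromosomes was 19.1%. The plot of shares by fold class shows the wide intervals of the stretch beside the narrow ones of the whole lists.

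**Figure D1:**
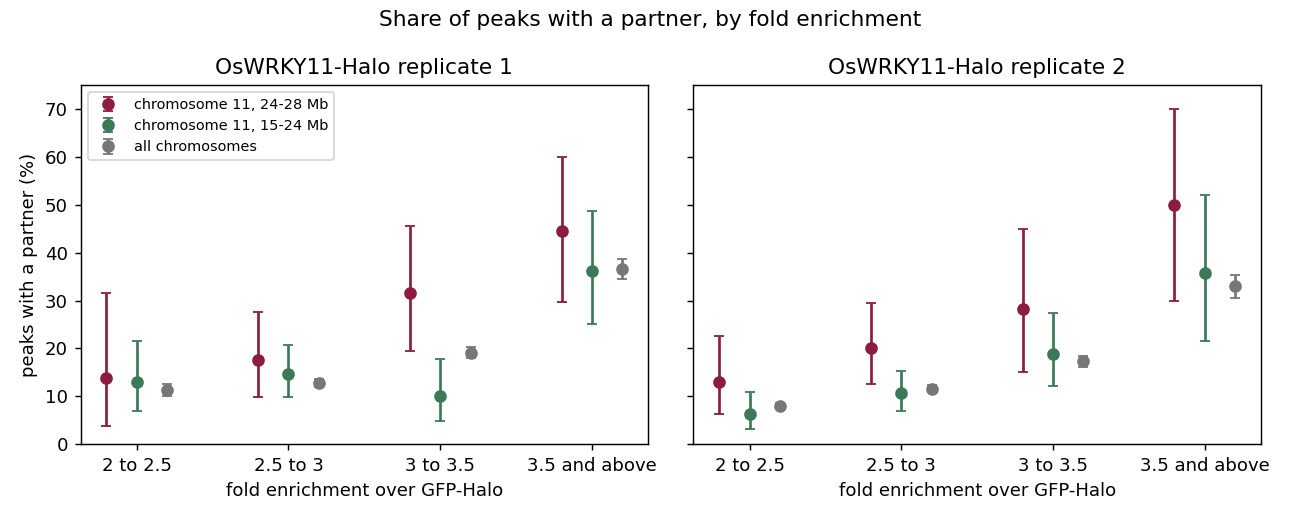
Share of peaks with a partner in the other list (vertical axis, %) by class of fold enrichment over GFP-Halo (horizontal axis), in each OsWRKY11-Halo list; points are shares and bars exact 95% binomial intervals. In the stretch from 24 to 28 Mb the share lies between 13.8% and 44.4% in replicate 1 and between 13.0% and 50% in replicate 2, above the 15 to 24 Mb value in each class, with intervals that overlap in 7 of the 8 classes.

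Typical coverage in the stretch was that of the whole lists. The pileup counts the OsWRKY11-Halo fragments that cover a summit. It had a median of 11 in both lists, as over all their peaks, and a range of 8 to 18 in both. The medians from 15 to 24 Mb were 10.5 and 11, with highest pileups of 63 and 77. No peak of the stretch reached a pileup of 40. This height was reached by 2 and 3 peaks from 15 to 24 Mb (0.457% and 0.532%) and by 1.15% and 1.04% of the whole lists. At such shares few are expected among 208 and 237 peaks, so their absence is no clear trait of the stretch. The exact 95% Poisson interval of a pileup of 18 is 10.7 to 28.4 fragments, so the highest and the typical peaks of the stretch are not told apart by coverage.

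The GFP-Halo background recovered from pileup and fold reached at most 6.41 fragments in replicate 1 and 5.84 in replicate 2. From 15 to 24 Mb, over more peaks, it reached 20.5 and 22. It stood at the lowest level of its list, 2.91 and 3.06 fragments, under 59.6% and 53.2% of the peaks of the stretch. The shares were 60.0% and 53.7% from 15 to 24 Mb, and 58.2% and 52.8% over the whole lists. A value common to so many peaks is not a coverage measured at each of them. The control coverage under these peaks is not known. On this lowest background, 29.0% of the replicate 1 peaks (21.2% to 37.9%, 36 of 124) and 25.4% of the replicate 2 peaks (18.1% to 33.9%, 32 of 126) had a partner. The corresponding shares from 15 to 24 Mb were 15.2% (11.1% to 20.1%) and 11.6% (8.18% to 15.7%). These intervals lay apart in both lists, which count nearly the same pairs. On a raised background, the shares were 22.6% and 18.9% in the stretch and 18.9% and 14.2% in the comparison, with overlapping intervals.

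Enrichment was close to that of the comparison. Median fold enrichment was 2.91 in replicate 1 and 2.71 in replicate 2, against 2.81 and 2.71 from 15 to 24 Mb. The highest folds were 4.86 and 4.43, against 5.12 and 5.41 in the comparison and 8.19 and 8.12 in the whole lists. Both of those hold more peaks, and a maximum tends to grow with their number. A fold of at least 4 was found for 7.69% of replicate 1 peaks and 1.69% of replicate 2 peaks. These shares were 4.11% and 1.24% from 15 to 24 Mb, and 4.06% and 1.71% in the whole lists. In replicate 1, 76 peaks had a q-value no higher than 0.05 (36.5%, 30.0% to 43.5%), where the whole list had 29.9%, as did 67 peaks in replicate 2 (28.3%, 22.6% to 34.5%), where it had 28.2%. The shares from 15 to 24 Mb were 28.8% and 28.9%. The higher share of replicate 1 overlapped that of the comparison in its interval, and replicate 2 showed no such excess. Likewise, a fold of at least 3 was found for 47.6% of replicate 1 peaks against 40.7% in its whole list, and for 27.4% of replicate 2 peaks against 26.1%.

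The peaks were unevenly spread over the 8 windows of 500 kb. Replicate 1 had 17, 27, 31, 18, 42, 36, 17 and 20 peaks in the windows from 24 to 28 Mb in order. Replicate 2 had 20, 21, 42, 19, 45, 34, 19 and 37. The window from 26 to 26.5 Mb was the fullest in both lists, while those from 24 to 24.5, 25.5 to 26 and 27 to 27.5 Mb held at most 20 peaks in either. The exact Poisson interval of the fullest window of replicate 1 was 30.3 to 56.8 peaks, and that of the emptiest windows 9.90 to 27.2. The variance over the windows was 3.54 times the mean in replicate 1 and 4.13 times in replicate 2, against 1.60 and 0.496 times over the 18 windows from 15 to 24 Mb and 1.87 and 1.99 times over all 741 whole windows of the 12 chromosomes.

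The lists differed most in the last window. From 27.5 to 28 Mb, replicate 2 had 37 peaks (26.1 to 51.0) and replicate 1 had 20 (12.2 to 30.9), a ratio of 1.85, where the whole lists stand at 1.34. From 24.5 to 25 Mb the order was the other way, with 27 peaks in replicate 1 (17.8 to 39.3) and 21 in replicate 2 (13.0 to 32.1), a ratio of 0.778. The intervals of the lists overlapped in both windows.

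Peaks with a partner followed the fuller windows. In window order, 2, 6, 8, 3, 12, 11, 6 and 7 replicate 1 peaks had a partner, and 2, 5, 8, 3, 12, 11, 5 and 7 replicate 2 peaks. The windows from 26 to 26.5 and from 26.5 to 27 Mb together held 23 of the 55 replicate 1 peaks with a partner (41.8%) and 23 of the 53 of replicate 2 (43.4%). Only 8 of the 741 whole windows in the genome had 12 or more replicate 1 peaks with a partner, and 16 had 11 or more, these windows included. In the 3 Mb outside 26 to 27 Mb, peaks with a partner stood at 10.7 and 10 per Mb, still above the 8.11 and 8 per Mb of the comparison. As a share of each window's peaks, partners were most frequent from 27 to 27.5 Mb in replicate 1 (35.3%, 6 of 17) and from 26.5 to 27 Mb in replicate 2 (32.4%, 11 of 34). They were least frequent from 24 to 24.5 Mb in both, at 11.8% and 10%. The adjoining window from 23.5 to 24 Mb, part of the comparison, had 10 of 27 replicate 1 peaks (37.0%) and 9 of 31 replicate 2 peaks (29.0%) with a partner, so high shares also occurred outside the stretch.

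**Figure D2:**
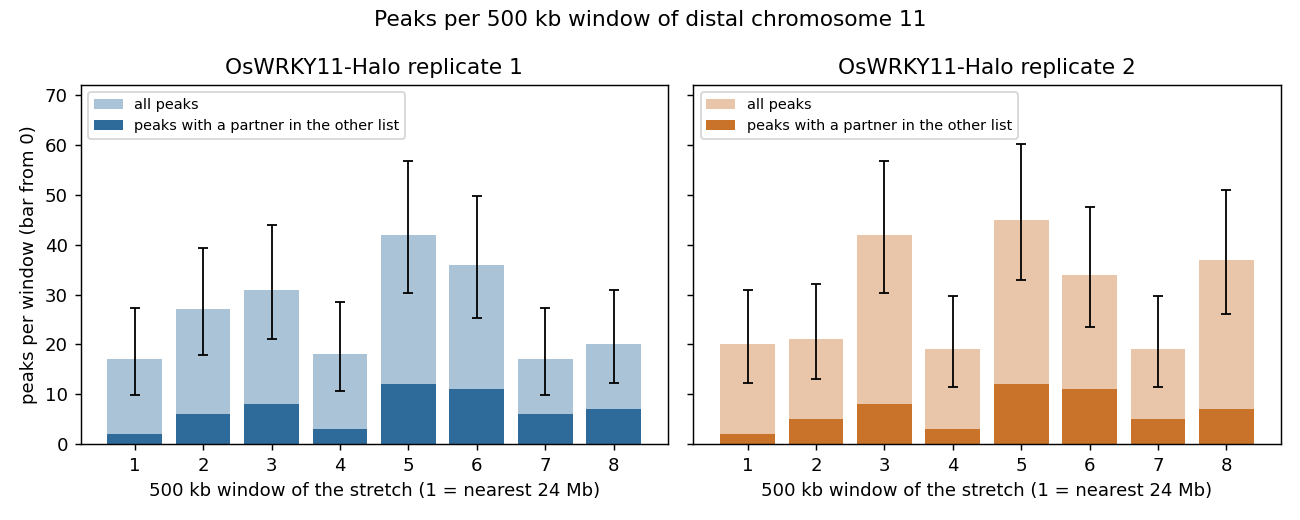
Peaks per 500 kb window (vertical axis, count) over the 8 windows from 24 to 28 Mb (horizontal axis, in order along the chromosome), in each OsWRKY11-Halo list; pale bars count all peaks with exact 95% Poisson intervals, and dark bars those with a partner. Window 5 is the fullest in both lists, with 42 and 45 peaks, of which 12 in each have a partner.

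Seen against the whole genome, the number of peaks with a partner placed the stretch higher than its number of peaks did. Stretches of the same 4 Mb length were laid at each 500 kb step along the 12 chromosomes, which gave 657 overlapping stretches. A total of 37 of them had at least 208 replicate 1 peaks and 293 had at least 237 replicate 2 peaks. By contrast, 7 had at least 55 replicate 1 peaks with a partner and 8 had at least 53 in replicate 2, the stretch itself counted. The median over all stretches was 29 peaks with a partner in replicate 1 and 30 in replicate 2. Since its bounds were set with the peaks known, these ranks describe it and support nothing.

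Spacing within a list was close to that of the comparison. Neighbouring summits lay a median of 12352 bp apart in replicate 1 and 9314 bp in replicate 2, against 13164 bp and 9478 bp from 15 to 24 Mb. By window, the shortest median of replicate 1 was 5853 bp (26 to 26.5 Mb) and the longest 28640 bp (24 to 24.5 Mb). Those of replicate 2 were 3846 bp (27.5 to 28 Mb) and 17425 bp (27 to 27.5 Mb). The widest gap of replicate 1, 108770 bp between summits at 25644615 and 25753385, held 4 peaks of replicate 2. The widest gap of replicate 2, 192639 bp between 25810961 and 26003600, held 6 peaks of replicate 1. Neither gap was thus empty in the other list.

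Close neighbours were more common than in the comparison. Of the distances between neighbouring summits, 11.6% in replicate 1 (24 of 207) and 13.6% in replicate 2 (32 of 236) were at most 1 kb, against 6.86% and 7.82% from 15 to 24 Mb and 7.90% and 8.44% over all chromosomes. Beyond 28 Mb the shares were 7.94% (5 of 63) and 18.1% (15 of 83). Such runs took in 46 and 57 peaks, with up to 3 and 5 peaks in a run. Counting each run once left 184 and 205 sites in the stretch.

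The 55 replicate 1 peaks with a partner were joined to 53 peaks of replicate 2, since a long replicate 2 peak was the partner of a pair of shorter replicate 1 peaks at 24967635 to 24968287 and again at 27346236 to 27347146. Paired summits lay a median of 75 bp apart (range 2 to 531 bp), against 63 bp from 15 to 24 Mb and 58 bp over all 2805 pairs. The summits lay within 100 bp of each other in 33 of the 55 pairs (60.0%), with an exact interval of 45.9% to 73.0%. The share was 64.4% from 15 to 24 Mb and 70.4% over all pairs, both inside this interval. Neighbouring pairs were a median of 42917 bp apart, against 96663 bp from 15 to 24 Mb.

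Paired peaks were longer and stronger than the remaining peaks of the stretch, as they were over the whole lists. In replicate 1 their median length was 210 bp against 167 bp, and their median fold 3.33 against 2.81. In replicate 2 it was 218 bp against 161 bp, and 2.95 against 2.71. A q-value no higher than 0.05 was found for 60.0% of the paired and 28.1% of the remaining peaks in replicate 1, and for 47.2% and 22.8% in replicate 2. Over the whole lists, these shares were 52.7% and 25.1% in replicate 1 and 49.3% and 25.1% in replicate 2, and the median lengths of paired and remaining replicate 1 peaks were 203 bp and 156 bp. Of the peaks without a partner, 27 of 153 in replicate 1 (17.6%) and 39 of 184 in replicate 2 (21.2%) had a summit of the other list within 1 kb. Over the whole lists these shares were 20.9% and 15.5%.

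Within pairs, the fold was higher in replicate 1 in 35 of 55 cases (63.6%, where all 2805 pairs gave 56.9%). The pileup was higher in replicate 1 in 29 pairs, higher in replicate 2 in 17 and equal in 9. The lowest background was 2.91 fragments in replicate 1 and 3.06 in replicate 2. Equal pileups on it therefore give a higher fold in replicate 1, so the count by fold is no measure of stronger enrichment there. Both folds reached 3 in 19 pairs (34.5%, against 30.5% of all pairs) and 4 in 1 pair. Both lists gave a q-value no higher than 0.05 in 18 pairs (32.7%), near the 31.7% of all pairs. Paired peaks had pileups of 8 to 18 in replicate 1 and 9 to 17 in replicate 2, with a median of 12 in both. Members of a pair differed by at most 7 fragments, and in all 55 pairs the replicate 2 pileup lay inside the exact 95% Poisson interval of the replicate 1 pileup. Such wide intervals cover most of the narrow range of these pileups, so this is no measure of agreement. The Spearman correlation of pileup between lists was 0.271 across the 55 pairs and 0.401 across all pairs. The Spearman correlation of fold between lists was 0.321 across the 55 pairs and 0.305 across all pairs. Peaks of a pair share the GFP-Halo background, and peaks are not independent replicates.

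**Figure D3:**
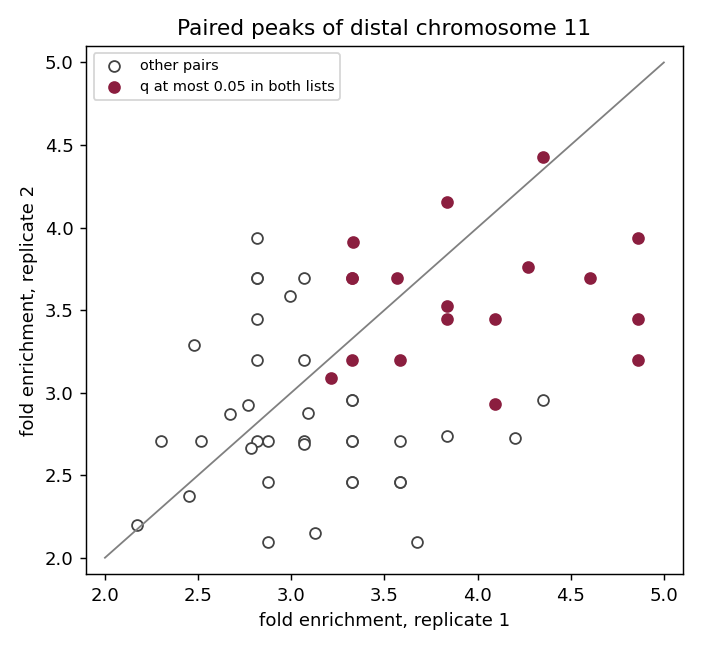
Fold enrichment over GFP-Halo in replicate 2 (vertical axis) against replicate 1 (horizontal axis) for the 55 pairs of the stretch; filled points have a q-value no higher than 0.05 in each list and the line marks equal folds. A total of 35 points lie below the line (63.6%, where all 2805 pairs gave 56.9%). The lowest background is lower in replicate 1, so pairs with equal pileups on it also fall below the line. The pair with both folds above 4 stands alone at the upper right.

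The strongest pair by the lower of its folds lay at 26887236 to 26887810. It had a replicate 1 fold of 4.35 and a replicate 2 fold of 4.43 (4.39 ± 0.0567, mean ± SD, n = 2). The summits lay 14 bp apart, at 26887463 and 26887449, on pileups of 16 (9.15 to 26) and 17 (9.90 to 27.2). Both peaks stood on the lowest background of their lists, 2.91 and 3.06 fragments. The replicate 2 peak was 575 bp long and the replicate 1 peak 179 bp.

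The second pair, at 26787115 to 26787638, had folds of 4.86 and 3.94 (4.40 ± 0.653) on pileups of 18 and 15, and both of its peaks were long, at 479 and 474 bp. The fifth lay next to it at 26788093 to 26788333, with folds of 4.61 and 3.69 (4.15 ± 0.646). Both belonged to the closest group of pairs in the stretch: 4 pairs with replicate 1 summits from 26768590 to 26788189, within 20 kb. The other members were weaker in at least 1 list. The pair with its replicate 1 summit at 26768590 had folds of 3.58 and 2.71, and that at 26770389 had 2.81 and 3.94.

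The third pair, at 27970997 to 27971456 near the distal edge, had folds of 3.84 and 4.16 (4 ± 0.225), and the fourth, at 26316031 to 26316768, had 4.27 and 3.76 (4.02 ± 0.362). The fourth pair joined peaks of 519 and 709 bp whose summits lay 295 bp apart, so that its peaks overlapped without a common summit. The remaining pairs of the leading 8 had lower folds between 3.45 and 3.57. They lay at 24967635 to 24968287, with pileups of 14 and 14, at 27809591 to 27810020, also with 14 and 14, and at 25314578 to 25314949, with 14 and 13. All 8 had a q-value no higher than 0.05 in each list. With pileups of 13 to 18 and SDs of up to 0.653, the order of these pairs is not settled by the data.

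**Figure D4:**
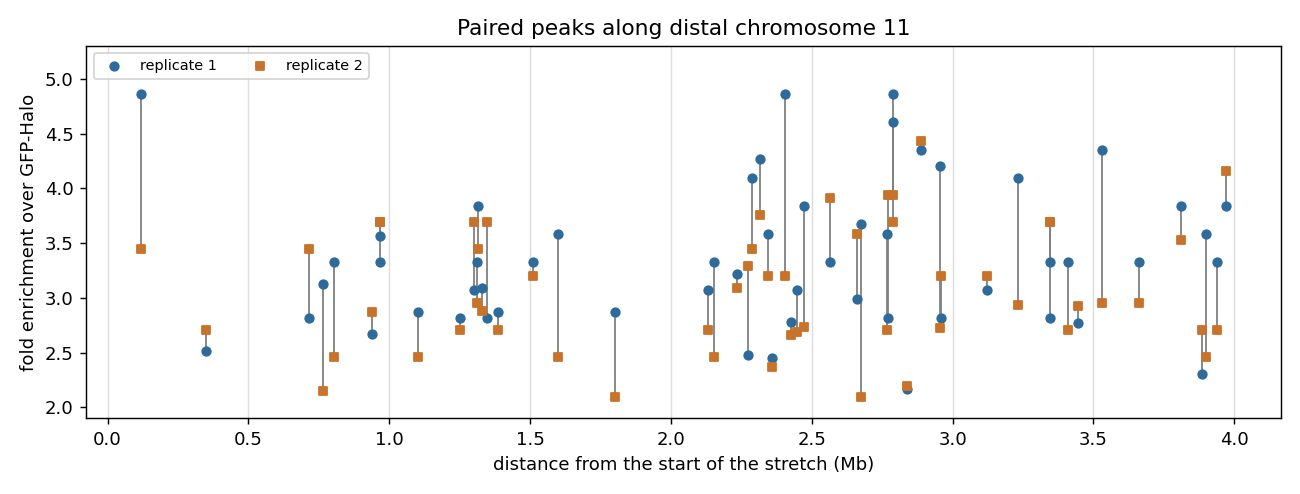
Fold enrichment over GFP-Halo (vertical axis) of the 55 pairs against the distance of the replicate 1 summit from the start of the stretch (horizontal axis, Mb); circles are replicate 1, squares replicate 2, a line joins the members of a pair, and pale lines bound the 500 kb windows. Pairs crowd between 2 and 3 Mb from the start, where 23 of the 55 lie, and folds stay below 5 throughout.

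Summits within 3 bp of each other were found in 2 pairs. The pair at 25300398 to 25300548 had summits 2 bp apart and peaks of 129 and 132 bp, with folds of 3.07 and 3.69 on pileups of 11 and 14. The pair at 26447466 to 26447778 also had summits 2 bp apart, with folds of 3.07 and 2.69 on pileups of 11 and 10. The pairs closest in position were thus of ordinary strength.

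Some of the strongest peaks had no partner although the other list had a peak nearby. In replicate 1, 3 peaks shared the highest fold of 4.86 on a pileup of 18, at 24117422 to 24117626, 26405065 to 26405340 and 26787160 to 26787638. All 3 had a partner, with replicate 2 folds of 3.45, 3.20 and 3.94. The same highest pileup of 18, with a fold of 4.20, was found at 26830222 to 26830365 and at 26955859 to 26956317. The former had no partner and the latter had a partner. By fold, the strongest replicate 1 peak without a partner, at 26133121 to 26133317 (fold 4.61, pileup 17), had a replicate 2 summit 167 bp away. The strongest replicate 2 peak without a partner, also by fold, at 26956373 to 26956778 (fold 4.43, pileup 17), had a replicate 1 summit 256 bp away. The highest pileup of replicate 2, 18 at 27438261 to 27438446, stood on a background of 4.12 fragments, had a fold of 3.71 and had no partner.

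Peaks next to the bounds of the stretch had folds between 2.71 and 3.84. The last summits below 24 Mb, at 23997056 in replicate 1 and 23997242 in replicate 2, had folds of 3.76 and 3.69. The first ones above it, at 24036840 and 24035720, had 2.81 and 3.20. At the other end, the last summits inside, at 27971132 and 27980676, had folds of 3.84 and 2.95, and the first ones outside, at 28022063 and 28021991, had 2.79 and 2.71. Beyond 28 Mb, up to the last peak of the chromosome, 18 of 64 replicate 1 peaks (28.1%, 17.6% to 40.8%) and 18 of 84 replicate 2 peaks (21.4%, 13.2% to 31.7%) had a partner, or 17.7 per Mb in both, above the density of the stretch. The intervals of the shares overlapped those of the stretch and of the part from 15 to 24 Mb alike.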

How the data were processed

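The tools named are MACS2 2.2.7.1, BWA 0.7.12-r1039 and Trimmomatic 0.36, per the submitters' processing notes, without roles or options. By the peak names, both OsWRKY11-Halo libraries were called singly against 1 GFP-Halo library, titled DZZ but spelled DDZ in the protocol. Read totals, and how reads with several matches were treated, are not given in the sources at hand.

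Per the file headers, the deposited pileup is a coverage signal at the summit, and the values are whole numbers. The deposited fold is a ratio over a GFP-Halo background, which under most peaks takes the lowest value of its list. Deposited p-values and q-values are on the -log10 scale. These scores are the authors' own for each peak, used to describe and rank peaks. The position columns are in bp.

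The background was recovered by raising the pileup by 1, dividing by the fold and taking off 1. Values within 0.001 of a list's lowest count as lowest. Of several overlapping peaks, the nearest by summit became the partner. Shares have exact (Clopper-Pearson) and counts exact Poisson 95% intervals. The search for partners was run on simulated peaks, with planted pairs whose summits nearly coincided and whose sites lay far apart. That run checks the counting only, and not the pairing of close or offset peaks. Each chromosome was measured up to its last peak.

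The stretch, its comparison and the rules were chosen with earlier results of these lists known. Named sites are the 8 pairs with the highest lower fold, pairs with summits within 3 bp, the highest pileup and fold of each list, the 20 kb with most pairs, the widest gaps and the strongest peaks without a partner. Alternatives were other overlap rules, stricter lists, other comparisons, merged neighbours and each list alone. Sequences and genes at peaks were not analysed here. Software was Python 3.11.15 with scipy 1.17.1, pandas 2.3.3, matplotlib 3.10.9 and numpy 2.4.6.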

Additional observations from a re-analysis of the deposited data

How the results depend on the processing

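The ratio of densities of peaks with a partner, 1.68 between 24 to 28 Mb and 15 to 24 Mb, stayed above 1 in all alternatives run. It was 1.88 at a q-value no higher than 0.05, 2.31 among folds of at least 3, 1.72 among pileups under 40, 1.58 with any overlap, 1.64 with 50% of both peaks overlapped and 1.54 with summits within 100 bp. It was 1.77 against the rest of chromosome 11 and 1.82 against the other 11 chromosomes. The difference in the share of peaks with a partner, 9.69 percentage points, was 12.2 for folds of at least 3 and 10.02 for pileups under 40. At folds of at least 3 it was 8.48 in replicate 1 and 15.9 in replicate 2, so it rose from 9.60 in replicate 2 and fell from 9.78 in replicate 1. Against the rest of chromosome 11 and the other 11 chromosomes, the difference was 9.28 and 9.20. It was 10.01 with any overlap, 6.06 with 50% of both peaks and 5.45 with summits within 100 bp.

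Restrictions chosen after seeing the data lowered both. With peaks under 200 bp only, which also drops pairs with a longer partner, they were 1.13 and 1.78 percentage points, with a peak density ratio of 0.904 and a spacing ratio of 1.14. Without 26 to 27 Mb they were 1.28 and 7.09, with a peak density ratio of 0.865. The peak density ratio, 1.01, was 1.14 at a q-value no higher than 0.05, 1.14 at folds of at least 3 and 1.13 against the other chromosomes. For both stricter sets the lists went opposite ways. The ratio was 1.36 in replicate 1 and 0.925 in replicate 2 at that q-value, and 1.33 and 0.956 at folds of at least 3. The ratio of median spacing, 0.961, was 0.857 at that q-value, 0.702 at folds of at least 3, 0.920 and 0.856 against the other comparisons and 1.09 with neighbours within 1 kb counted once. The median pileup difference, 0.25, was -0.5 at folds of at least 3. The cause of these shifts was not tested.

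The values from each list alone lay between 0.945 and 1.07 for peak density, 1.66 and 1.70 for peaks with a partner, 9.60 and 9.78 percentage points for the share, 0 and 0.5 for pileup, 0.938 and 0.983 for spacing, and 0 and 0.0944 for median fold. Of the 60 alternative values that leave out no list, 29 moved by no more than the spread between lists or, for the fullest window, by less than 1.5 times. The 29 include the values of the 8 named pairs, whose partners did not change. For peaks with a partner, the lists count nearly the same pairs, so their spread is no measure of robustness. Partners by longest overlap changed 0 of the 55 pairs, and shifting windows by 250 kb gave 42 peaks in the fullest window. No paired analysis was possible because the GFP-Halo group has 1 library and enters both lists. Pileups of 8 to 18 limit the precision of each fold.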
